A study of Mus musculus with 12 samples.

Results

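Wild type (WT) cartilage was compared with WT long bone at embryonic day 16.5, the normal difference between the cartilaginous tip of a limb bone and the whole bone that carries it. The comparison was defined by the sample labels and holds 5 of the 12 arrays of the series: 2 of chondroepiphyseal cartilage and 3 of entire long bones. Chondroepiphyseal cartilage is the unossified end of a long bone, and it was broken off most elements of the limbs. Entire long bones, such as femora, tibiae and humeri, kept this cartilage and added the growth plate, the bone and its marrow space, so cartilage RNA is part of both tissues. Muscle and vessels were rubbed off on filter paper before RNA was extracted. The embryos were C57BL/6 littermates counted as WT, which means S1Pf/f, S1Pf/+ or S1Pf/+;Col2-Cre, and the labels do not say which of these genotypes an array holds. All of them carry at least 1 floxed allele of S1P (site-1 protease). The S1Pcko embryos (S1Pf/f;Col2-Cre), which lack S1P in cells with Cre under the Col2 promoter, gave 2 cartilage and 3 long bone arrays, and calvaria, the skull vault, gave 1 array per genotype. These other 7 arrays entered the normalization and are named only where they bear on the tissue difference.

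At this stage a limb bone is built from cartilage. Chondrocytes at the ends divide and secrete a matrix of type II collagen, aggrecan and link protein under the transcription factors SOX9, SOX5 and SOX6. Toward the shaft they enlarge, switch to type X collagen and mineralize their matrix. Vessels then bring in osteoclasts, which resorb the mineralized cartilage, osteoblasts, which lay down type I collagen and mineralize it, and the blood-forming cells of the first marrow. Intramembranous bone such as the calvaria is made by osteoblasts with no cartilage stage.

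RNA was labelled as biotinylated cRNA and hybridized to Illumina MouseWG-6 v1.1 bead arrays. Levels are normalized log2 intensities, and differences are log2 cartilage minus log2 long bone, so that a positive value is higher in cartilage. The numbers of the titles serve as array names: 1919 and 1927 are cartilage, and 1921, 1923 and 1929 are long bone. Values per array are given in this order. On the 5 arrays between 20736 and 21093 of the 46643 probes were detected (detection p under 0.05), and the lowest detected probe stood between 5.04 and 5.07. By their titles, 1927 is another amplification of the cartilage RNA of 1919, and 1929 is another amplification of the long bone RNA of 1923. The cartilage arrays therefore hold 1 extract and the long bone arrays hold 2, and the labels do not say how many embryos went into an extract. The p values rest on a spread that these arrays share with the S1Pcko cartilage and long bone arrays. The part that WT cartilage adds to it is the spread between amplifications.

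The pairs of arrays differed to this degree. Of the 22035 probes tested, 112 differed by at least 2-fold between 1919 and 1927, and 153 between 1923 and 1929. Array 1921 stood apart from the other long bone arrays, with 447 such probes against 1923 and 708 against 1929. Between a cartilage and a long bone array there were 1129 to 1811. The genes of embryonic sex split the arrays in the same way. Xist, the RNA of the inactive X chromosome, was at 5.70 and 6.20 in cartilage, against 6.62, 12.14 and 11.45 in long bone. Eif2s3y, a gene of the Y chromosome, was at 8.34 and 7.49 in cartilage, against 6.71, 4.36 and 4.22 in long bone. Kdm5d, also of the Y chromosome, was at 6.75 and 6.35 in cartilage, against 6.03, 4.26 and 4.29 in long bone. Array 1921 thus had low Xist and Y-linked signal like the cartilage arrays, whereas 1923 and 1929 had high Xist and undetected Eif2s3y. Uty, the remaining gene tested, differed little, at 5.79 and 5.98 in cartilage, against 5.14, 5.48 and 5.68 in long bone, and none of the 4 was called. For this reason the results on gene groups are also given without 1921 and against 1921 alone, a choice made after the values were seen.

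A probe or gene is said to be called where the adjusted p of limma was under 0.05 and the difference at least 2-fold. Over all probes 388 (1.76%) were called higher in cartilage and 563 (2.56%) lower. By gene, with the brightest tested probe standing for each of 11954 genes, 255 (2.13%) were higher and 352 (2.94%) were lower, and the median over all genes was 0.03. The falls were the larger: 23 of the 352 lower genes reached 8-fold, against 5 of the 255 higher genes, and the median fold was 2.55 among lower and 2.40 among higher genes. The plot of difference against level shows this asymmetry. The counts called in the gene lists below are to be read beside the 2.13% and 2.94% of all genes. Counts of positive or negative differences are to be read beside 6388 positive and 5554 negative of all 11954. When the amplifications of an extract were averaged, so that cartilage had 1 value and long bone 2, 20 genes were higher and 70 lower, with the lone cartilage value assumed to vary like the other groups. In this averaging the S1Pcko long bone arrays were kept apart, because the title of array 1930 does not say whether it re-amplifies 1922 or 1924. The mean level of the skeletal muscle list was 9.477 on 1924, 9.445 on 1930 and 11.122 on 1922. The summed intensity of the list of embryonic sex genes was 547 on 1924, 511 on 1930 and 5216 on 1922. On both lists 1930 was close to 1924 and far from 1922. The spread of that fit thus probably still includes one between amplifications, and its calls are to be read with this limit. Fewer cells of a type and less RNA per cell cannot be told apart in such bulk samples.

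**Figure D1:**
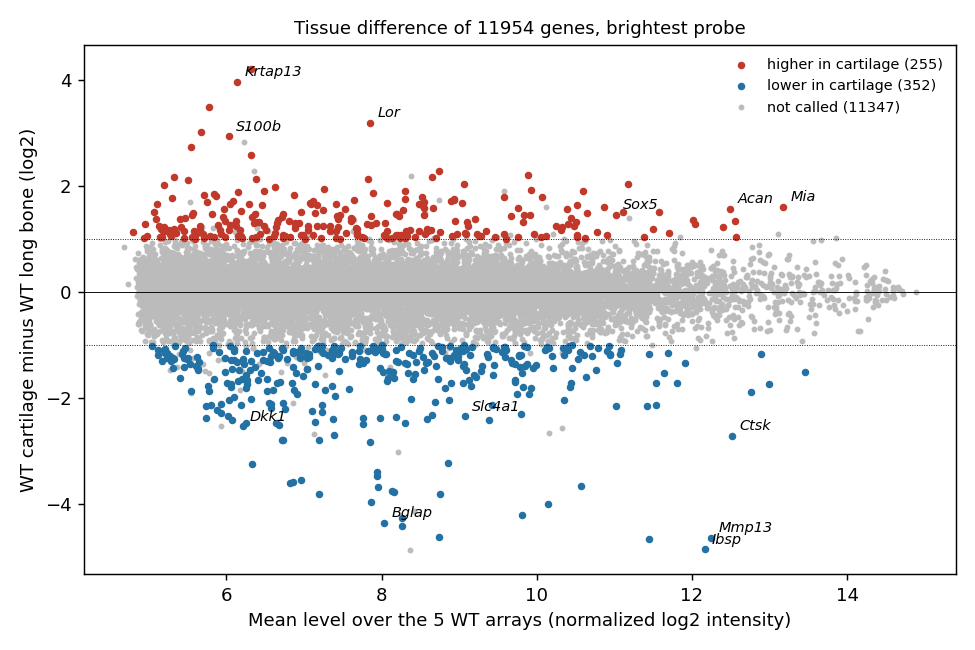
Tissue difference (log2, WT cartilage minus WT long bone, y axis) against the mean normalized log2 intensity over the 5 WT arrays (x axis), with 1 point for each of 11954 genes. The 255 genes called higher in cartilage are red and the 352 called lower are blue, the dotted lines mark 2-fold, and the lower genes reach farther from 0 than the higher ones.

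Genes of osteoblasts and mineralization were among the largest falls. Of the 23 tested genes of this list, 14 were lower in cartilage and 1 was higher, with a median of -1.52. Ibsp, bone sialoprotein, which nucleates mineral in the bone matrix, was at 9.31 and 9.21 in cartilage, against 13.92, 14.09 and 14.30 in long bone. This difference of -4.84 (SE 0.21, adjusted p = 1.37e-06) was the largest fall among called genes without overlap. Calvaria had Ibsp at 13.95, beside the long bone values. Bglap, osteocalcin, a protein of mature osteoblasts, was at 5.48 and 5.38 in cartilage, against 10.13, 9.46 and 9.73 in long bone (-4.35, SE 0.56, adjusted p = 0.00116). Mmp13, the collagenase of terminal hypertrophic chondrocytes and osteoblasts, was at 9.66 and 9.29 in cartilage, against 14.10, 14.14 and 14.07 in long bone (-4.63, SE 0.21, adjusted p = 1.37e-06). All 3 long bone arrays were thus far above both cartilage arrays for these genes, 1921 included. The promoters of these 3 genes are shown because they are among the genes with the largest falls and are known, in skeletal cells, for control by RUNX2 and, for Mmp13, by AP-1. They are 300 bases of the RefSeq annotation of GRCm38.p6, from 250 before to 50 after the start, 5′ to 3′ on the strand of the gene. Ibsp lies at chr5:104299037-104299336 (plus strand), Mmp13 at chr9:7272264-7272563 (plus strand) and Bglap at chr3:88384417-88384716 (minus strand). Capitals mark exact matches on either strand to TGTGGT (the Runx core), TGAGTCA (AP-1), ACAAAG or ACAATG (SOX cores).
Ibsp: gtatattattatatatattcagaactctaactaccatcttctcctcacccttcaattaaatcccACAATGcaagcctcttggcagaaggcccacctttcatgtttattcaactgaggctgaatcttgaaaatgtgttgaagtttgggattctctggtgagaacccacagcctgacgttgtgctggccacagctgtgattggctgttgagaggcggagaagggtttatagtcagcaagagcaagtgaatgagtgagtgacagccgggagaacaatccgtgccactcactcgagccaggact
Mmp13: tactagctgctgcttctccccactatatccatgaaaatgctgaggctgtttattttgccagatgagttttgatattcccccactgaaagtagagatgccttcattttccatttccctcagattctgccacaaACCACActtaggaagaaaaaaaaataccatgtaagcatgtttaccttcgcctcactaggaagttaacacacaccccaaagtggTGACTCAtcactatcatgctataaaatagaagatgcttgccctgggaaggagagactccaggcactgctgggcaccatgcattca
Bglap: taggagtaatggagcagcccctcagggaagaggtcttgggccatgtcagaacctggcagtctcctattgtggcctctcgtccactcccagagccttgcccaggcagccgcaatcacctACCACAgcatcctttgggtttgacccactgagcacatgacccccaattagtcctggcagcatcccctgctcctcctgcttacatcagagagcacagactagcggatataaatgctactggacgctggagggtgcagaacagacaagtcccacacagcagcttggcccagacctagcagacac

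In these windows Mmp13 held a Runx core, which began 118 bases before the start, and an AP-1 match, which began 35 bases before it. Bglap held a Runx core 132 bases before the start, and Ibsp held a SOX core 186 bases before it. Such short matches are common: TGTGGT was in 16.8% of 32851 mouse promoters of this length, in 12.9% of those of tested genes, in 16.9% of those of genes lower in cartilage and in 19.2% of those of genes higher in cartilage. TGAGTCA was in 5.2% of all promoters, 4.05% of those of tested genes, 6.48% of those of lower genes and 5.88% of those of higher genes. A match is a description of the letters and not of a bound site.

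Further along the osteoblast path, Ifitm5, a membrane protein of mineralizing osteoblasts, was at 7.25 and 7.33 in cartilage, against 10.92, 11.66 and 11.89 in long bone (-4.20, SE 0.26, adjusted p = 1e-05). Phex, an endopeptidase that restrains phosphate loss, was at 7.69 and 7.78 in cartilage, against 11.92, 11.62 and 11.67 in long bone (-4.00, SE 0.23, adjusted p = 6.61e-06). Enpp6, a phosphodiesterase that frees phosphocholine, was at 5.51 and 5.73 in cartilage, against 9.95, 9.98 and 10.16 in long bone (-4.41, adjusted p = 1.18e-05). The groups did not overlap for any of these genes. The remaining genes of this list, here and in the next paragraph, were chosen after their values were seen, except Col1a1. Sp7 (osterix), the transcription factor of osteoblast commitment, was at 10.37 and 10.17 in cartilage, against 12.35, 12.41 and 12.41 in long bone (-2.12, adjusted p = 5.27e-05). Col1a2, a chain of type I collagen, differed by -2.04 (adjusted p = 0.00029), whereas Col1a1, the partner chain, differed by -0.52 without being called. Alpl, the phosphatase that provides phosphate for mineral, fell by 1.79 on the log2 scale. Col24a1, a fibrillar collagen of bone, differed by -1.71.

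Dmp1 and Tnfsf11 were not detected on either cartilage array and were detected on all 3 long bone arrays. They passed the filter through long bone alone, so their difference was partly fixed in advance. The same holds for every probe given below that was undetected on all arrays of a group. Where a probe was undetected on every array of a group, the fold is a bound, set against the lowest detected signal of each array or the probe's own value if higher. On this basis Dmp1, a matrix phosphoprotein of osteocytes, had a level at least 2.24-fold lower in cartilage tissue (adjusted p = 0.00125), and Tnfsf11 (RANKL), the ligand that drives osteoclast formation, at least 2.71-fold lower (adjusted p = 0.000583). Mepe, another osteocyte phosphoprotein, was at 5.25 and 5.26 in cartilage, against 8.05, 7.0 and 7.28 in long bone (-2.19, adjusted p = 0.0264), and was called in 1 of the 5 fits that left out an array. Tnfrsf11b (osteoprotegerin), the decoy receptor for RANKL, was the gene of the list that rose, at 9.40 and 9.44 in cartilage, against 8.53, 8.0 and 8.36 in long bone (1.12, adjusted p = 0.0029). Ligand and decoy thus differed in opposite directions between the tissues.

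The osteoblast list held its direction against either long bone extract, with a median of -1.63 and 14 of the called genes still called without 1921, and a median of -1.44 and 11 still called against 1921 alone. Its summed intensity was 28415 and 37490 in cartilage, against 69310, 73869 and 80637 in long bone. With amplifications averaged, 5 of its genes were called, all lower in cartilage. In S1Pcko embryos, whose arrays are separate from these, the median of the same list was -1.16.

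Genes of osteoclasts fell as a group. Of the 18 tested, 11 were lower in cartilage and 0 were higher, with a median of -1.42, and all 18 differences were negative. However, 3 of the 18 were undetected on both cartilage arrays and passed the filter through long bone alone. Their direction was thus partly fixed in advance. Mmp9, the gelatinase that osteoclasts and their kin use at the cartilage front, was at 8.78 and 8.52 in cartilage, against 13.45, 13.23 and 13.25 in long bone (-4.66, SE 0.33, adjusted p = 2.11e-05). Ctsk, cathepsin K, the protease that dissolves bone collagen, was at 10.97 and 10.81 in cartilage, against 13.67, 13.41 and 13.71 in long bone (-2.70, SE 0.23, adjusted p = 8.29e-05). Ocstamp, a membrane protein of osteoclast fusion, was at 5.38 and 6.03 in cartilage, against 9.66, 9.92 and 10.32 in long bone (-4.26, adjusted p = 1.31e-05), and its other probe differed by -1.12. Long bone was the higher tissue on each of its 3 arrays for all of these.

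Among the receptors, Oscar, a costimulatory receptor of osteoclasts, was at 5.99 and 6.31 in cartilage, against 9.21, 8.81 and 8.92 in long bone (-2.83, adjusted p = 0.000331). Tnfrsf11a (RANK), the receptor for RANKL, differed by -1.07 (adjusted p = 0.00271). Of the resorption machinery, Ckb, the creatine kinase of osteoclasts and brain, differed by -1.88 (adjusted p = 0.000136), Ostm1, a partner of the chloride channel of the ruffled border, by -1.81 (adjusted p = 0.000123), and Tcirg1, a subunit of the proton pump, by -1.59 (adjusted p = 0.000354). Acp5, tartrate-resistant acid phosphatase, was not detected in cartilage, which put it at least 1.86-fold lower there (adjusted p = 0.00741). For Dcstamp, the other fusion protein, the bound was a fall of at least 3.04-fold (adjusted p = 5.86e-05). Other than Oscar and Acp5, the genes of this paragraph were chosen after their values were seen.

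Slc9b2, a sodium and proton exchanger known from osteoclasts, and Slc37a2, a sugar phosphate exchanger of macrophages and osteoclasts, were in none of the lists and were among the 15 largest falls. Slc9b2 was at 6.46 and 5.47 in cartilage, against 10.52, 10.63 and 10.60 in long bone (-4.62, adjusted p = 4.09e-05). Slc37a2 differed by -3.95 (adjusted p = 2.74e-05), but its other probe differed by -0.04. The osteoclast list kept all 11 calls without 1921 and 10 against 1921 alone, 8 with amplifications averaged, and had a summed intensity of 14218 and 14222 in cartilage, against 51101, 47343 and 52697 in long bone. The list median in S1Pcko embryos was -0.44. The plot of single genes by array shows the bone genes beside those of cartilage.

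**Figure D2:**
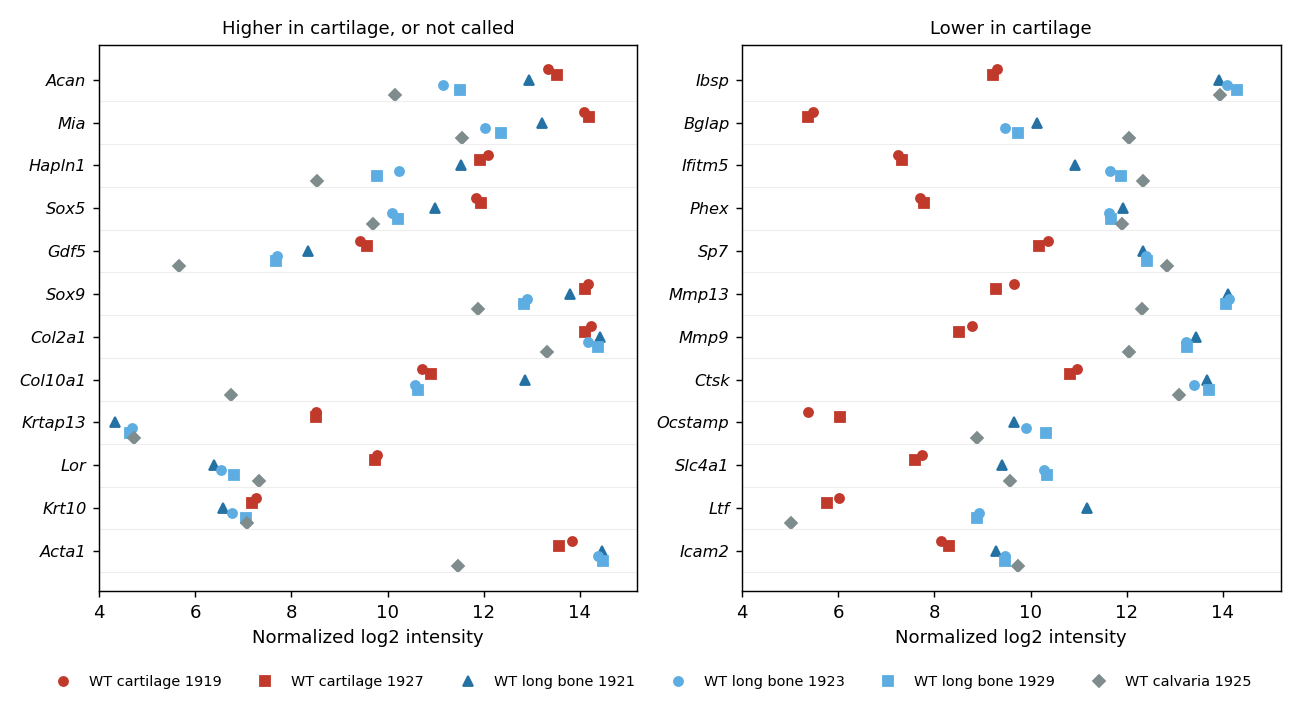
Normalized log2 intensity (x axis) of 24 genes, with 1 point per array: WT cartilage red, WT long bone blue with the triangle for array 1921, WT calvaria gray. In the right panel the red points lie left of the blue ones for every gene, and in the left panel array 1921 lies between cartilage and the other long bone arrays for Acan, Mia, Hapln1, Sox5, Gdf5 and Sox9.

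Genes of the cartilage matrix were higher in cartilage by smaller amounts. Of 19 tested, 8 were higher and 0 were lower, with a median of 1.1, and 18 of the 19 differences were positive. Acan, the core protein of aggrecan, was at 13.34 and 13.53 in cartilage, against 12.94, 11.15 and 11.51 in long bone (1.57, SE 0.43, adjusted p = 0.0394). Hapln1, the link protein that fixes aggrecan to hyaluronan, was chosen after its values were seen and was at 12.10 and 11.92 in cartilage, against 11.52, 10.24 and 9.77 in long bone (1.5, SE 0.40, adjusted p = 0.0363). Mia, a small secreted protein of chondrocytes, was at 14.08 and 14.20 in cartilage, against 13.21, 12.03 and 12.36 in long bone (1.60, SE 0.34, adjusted p = 0.0128). In each of them 1921 was the long bone array nearest to cartilage, and no long bone array reached a cartilage array. Of the 5 fits that left out an array, Acan and Hapln1 were called in 1, the fit without 1921 (highest adjusted p of the others 0.201 and 0.178), and Mia in 3. Col27a1, a fibrillar collagen of cartilage, differed by 1.79 (adjusted p = 0.0196) and its other probes by 1.90, 0.89 and 0.28.

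Type II collagen itself was not called. Col2a1 was at 14.22 and 14.11 in cartilage, against 14.41, 14.18 and 14.38 in long bone, a difference of -0.15, and its other probes differed by -0.02 and 1.69. Its brightest probe lay near the upper end of the intensities on all 5 arrays. Col9a1, Comp and Prelp, further matrix genes of which Col9a1 and Comp were chosen after their values were seen, had differences of 0.97, 1.02 and 1.1 with adjusted p of 0.0931, 0.0513 and 0.0545. Ucma, a secreted protein of the upper cartilage zone, was at 11.10 and 10.33 in cartilage, against 10.78, 8.12 and 7.55 in long bone. Its difference of 1.90 was the highest of the list and not called (adjusted p = 0.117), and the groups overlapped through 1921.

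The matrix list depended on which long bone extract it was set against. Without 1921, 13 of its genes were called and the median was 1.39. Against 1921 alone, 0 were called and the median was 0.36, and 0 were called with amplifications averaged. The summed intensity was 158235 and 169164 in cartilage, against 132308 on array 1921 and 72512 and 78918 on 1923 and 1929. In 14 of the 19 genes both cartilage arrays exceeded all 3 long bone arrays, beside 23.1% of all genes. The list median in S1Pcko embryos was 0.21.

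The transcription factors of chondrocytes moved less as a group, with 4 of 21 higher in cartilage, 0 lower and a median of 0.17. Sox9, which starts the chondrocyte program, was at 14.16 and 14.10 in cartilage, against 13.79, 12.91 and 12.85 in long bone, and its difference of 0.95 had an adjusted p of 0.0489 but was under 2-fold. Sox5, its partner, was at 11.84 and 11.95 in cartilage, against 10.99, 10.09 and 10.23 in long bone (1.46, SE 0.26, adjusted p = 0.00634), and the other 5 tested probes of Sox5 were all higher in cartilage, by 0.56 to 1.72. Sox8, a relative of Sox9, was at 9.97 and 10 in cartilage, against 9.0, 7.92 and 7.79 in long bone (1.74, adjusted p = 0.0059), although its other probe differed by -0.01. Barx1, a homeobox factor of joints and cartilage condensations, differed by 1.66 (adjusted p = 0.00933), and Foxa3, a forkhead factor, by 1.5 (adjusted p = 0.0296), called in 1 of the 5 fits that left out an array, that without 1921. None of the 4 was called against 1921 alone. The promoters of Acan, Hapln1 and Sox5 are shown as those of a matrix pair and a factor that were higher together, with the same capitals and from the same build. They were chosen after their values were seen. Acan lies at chr7:79052976-79053275 (plus strand), Hapln1 at chr13:89540386-89540685 (plus strand) and Sox5 at chr6:143947057-143947356 (minus strand).
Acan: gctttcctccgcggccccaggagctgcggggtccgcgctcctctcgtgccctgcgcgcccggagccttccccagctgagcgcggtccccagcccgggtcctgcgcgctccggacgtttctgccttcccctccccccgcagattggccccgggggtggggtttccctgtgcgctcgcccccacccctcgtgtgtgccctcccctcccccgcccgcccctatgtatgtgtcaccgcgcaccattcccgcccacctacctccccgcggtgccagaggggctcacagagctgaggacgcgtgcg
Hapln1: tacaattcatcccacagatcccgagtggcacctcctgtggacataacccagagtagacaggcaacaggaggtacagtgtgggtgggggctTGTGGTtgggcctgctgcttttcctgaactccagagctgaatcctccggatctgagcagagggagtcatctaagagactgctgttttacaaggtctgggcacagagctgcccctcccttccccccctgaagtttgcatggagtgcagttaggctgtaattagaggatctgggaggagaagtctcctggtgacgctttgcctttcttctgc
Sox5: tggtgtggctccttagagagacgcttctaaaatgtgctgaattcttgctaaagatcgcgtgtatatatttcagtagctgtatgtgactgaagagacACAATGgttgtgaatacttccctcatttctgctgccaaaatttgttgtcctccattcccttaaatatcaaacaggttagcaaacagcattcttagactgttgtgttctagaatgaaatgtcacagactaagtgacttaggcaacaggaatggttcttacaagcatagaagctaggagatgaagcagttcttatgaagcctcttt

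Hapln1 held a Runx core, which began 160 bases before the start, and Sox5 held ACAATG, which began 154 bases before it. The Acan window held none of the 4 motifs. ACAATG was in 12.6% of all promoters, 7.97% of those of tested genes, 6.27% of those of higher genes and 7.89% of those of lower genes. For ACAAAG the shares in the same order were 18.7%, 14.6%, 14.5% and 14.1%.

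The 15 largest rises also held genes of none of the lists. S100b, a calcium-binding protein of chondrocytes and glia, was at 7.94 and 7.64 in cartilage, against 5.31, 4.75 and 4.51 in long bone (2.93, SE 0.26, adjusted p = 0.0001), and of the long bone arrays it was detected on 1. B3gat1, a glucuronyltransferase, was at 7.72 and 8.02 in cartilage, against 5.58, 5.01 and 5.27 in long bone (2.59, adjusted p = 0.00127). Extl1, an exostosin-like transferase of heparan sulfate, was at 10.02 and 10.18 in cartilage, against 8.32, 7.37 and 7.80 in long bone (2.27, adjusted p = 0.00143). These genes were above every long bone array on both cartilage arrays. C4a, a complement component, differed by 2.21 and its other probe by 2.49. Slc1a1, a glutamate transporter, differed by 2.13 and its other probe by 1.63, and Kctd4 by 2.16 and 0.63. Cuedc1 differed by 2.13 with an adjusted p of 0.047, and it was called in 1 of the 5 fits that left out an array. Pdgfd, a platelet-derived growth factor, was undetected in long bone and at least 2.96-fold higher in cartilage (adjusted p = 0.0001), but its other probe differed by -0.56. The higher probe passed the filter through the cartilage arrays alone, so it had to differ.

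Genes of the epidermis were among the largest rises. Of 14 tested genes of this list, 7 were higher in cartilage and 0 were lower, with a median of 1.23. However, 7 of the 14 were undetected on all 3 long bone arrays and passed the filter through the cartilage arrays alone, so the count and the median describe a set that had to differ. Of the 7 genes detected in long bone, 1 was higher, Lor. Krtap13, a keratin-associated protein of hair, was at 8.52 and 8.51 in cartilage, against 4.33, 4.69 and 4.64 in long bone, and was undetected in long bone (at least 11.0-fold higher, adjusted p = 1.37e-06). Lor, loricrin, the main protein of the cornified envelope of skin, was at 9.79 and 9.73 in cartilage, against 6.39, 6.53 and 6.81 in long bone (3.19, SE 0.21, adjusted p = 1.44e-05). Lce1c, Lce1m and Lce1b, late cornified envelope proteins, were undetected in long bone and at least 6.97-fold, 5.35-fold and 4.34-fold higher in cartilage. Cartilage stood apart from all long bone arrays, 1921 included. Kprp, a keratinocyte protein rich in proline, was at least 3.26-fold higher, and Calm4, a calmodulin-like protein of epidermis chosen after its values were seen, at least 2.54-fold higher. The gene with the largest rise was 2310034C09Rik, for which no role is given here. It was at 8.58 and 9.10 in cartilage, against 4.59, 4.74 and 4.57 in long bone (at least 13.7-fold higher, adjusted p = 1.53e-06). It too was undetected in long bone and passed the filter through the cartilage arrays alone.

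The 7 epidermal genes were called with amplifications averaged, without 1921 and against 1921 alone. They were proteins of the outer, cornified layer and of hair. Trp63, Sfn and Krt17 of the basal and suprabasal layers differed by -0.28, -0.12 and 0.23 and Krt10, a keratin of the suprabasal layer, by 0.43, and none of them was called. These 4 were chosen after their values were seen. Dsg1a, Krtdap and Sbsn, the remaining tested genes of the list, were not called either, so no contrast between layers is drawn from these genes. The basal keratins Krt5 and Krt14 were not detected on enough arrays to be tested. The summed intensity of the list was 2788 and 2625 in cartilage, against 804, 809 and 903 in long bone and 948 in calvaria. In S1Pcko embryos the sum was 1054 and 1017 in cartilage, against 1547 on long bone array 1922 and 985 and 991 on the other long bone arrays, and 12 of the 14 genes were detected on 1922. The list had a median of -0.16 there, and the difference between the genotypes was called for all 7. These 7 were selected as high on the same WT cartilage arrays, so this call is not an independent result. From the same arrays the study had listed Krtap13, Lor, Lce1m, Kprp and Calm4 as lower in S1Pcko chondrocytes. The gene lists were chosen with earlier results of these data known. The count called in this list is therefore not independent of that listing. The part that skin on the dissected tips may have in these values was not tested.

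Joint and growth plate genes split. Gdf5, the growth factor that marks the forming joint, was at 9.42 and 9.56 in cartilage, against 8.35, 7.71 and 7.67 in long bone (1.58, SE 0.23, adjusted p = 0.00208), and its other probe differed by 1.07. Tnc, tenascin C, a matrix protein of perichondrium and joint surface, differed by -1.34 (adjusted p = 0.00048), and Cd44, the receptor for hyaluronan, by -1.27 (adjusted p = 0.00357), with its other probes at -1.04, 0.01 and 0.40. Gdf5 was thus the called gene of the joint list that was higher, and 2 of its 16 tested genes were lower. With amplifications averaged none of the 3 was called. Of 19 growth plate genes 0 were higher and 2 were lower, Mmp13 and Ank, a pyrophosphate transporter (-1.41, adjusted p = 0.00239), with a median of 0.06. Ihh, the hedgehog ligand of prehypertrophic cells, and Fgfr3, a brake on chondrocyte division, were higher by 1.12 and 1.05 without being called (adjusted p of 0.0907 and 0.0579). Col10a1, the collagen of hypertrophic cells, was at 10.71 and 10.91 in cartilage, against 12.86, 10.57 and 10.63 in long bone. It was thus highest on 1921, and on the other long bone arrays it was just below cartilage.

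Blood and marrow genes were lower in cartilage by list median, and array 1921 set much of the size in the list of macrophages and granulocytes. In the list of macrophages and granulocytes 6 of 21 genes were lower and 0 were higher, with a median of -1.07. Ltf, lactoferrin of neutrophil granules, was at 6.01 and 5.77 in cartilage, against 11.18, 8.92 and 8.88 in long bone (-3.77, SE 0.93, adjusted p = 0.0263). S100a9, a calcium-binding protein of neutrophils, was at 6.68 and 6.12 in cartilage, against 11.22, 8.57 and 8.46 in long bone, and was not called (-3.02, SE 1.06, adjusted p = 0.0914). Mpo, myeloperoxidase, was undetected in cartilage and at 9.26, 5.46 and 6.08 in long bone, and was not called (adjusted p = 0.087). All long bone arrays exceeded cartilage for these granule genes, and 1921 was the highest by over 2 on the log2 scale. Hp, haptoglobin, in none of the lists, was at 6.25 and 5.51 in cartilage, against 10.13, 9.44 and 9.32 in long bone (-3.75, adjusted p = 0.00144). Of the genes shared by macrophages and other myeloid cells, chosen after their values were seen, Fcer1g, an adaptor of Fc receptors, differed by -2.12 (adjusted p = 0.002) and Laptm5, a lysosomal protein, by -1.72 (adjusted p = 0.00342). Lyz2, lysozyme, differed by -1.80 (adjusted p = 0.0359) and was called in 0 of the 5 fits that left out an array. Adgre1 (F4/80), the marker that defined the list, differed by -0.18, and the C1q genes of tissue macrophages, C1qa, C1qb and C1qc, had differences of -0.18, -0.49 and 0.13, and these and Lyz2 were also chosen after their values were seen. Summed intensity was 5672 and 5541 in cartilage, against 27261 on 1921 and 12910 and 13296 on 1923 and 1929, and the list median was -0.80 without 1921 and -1.61 against 1921 alone. None of these genes was called with amplifications averaged.

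Erythroid genes split between the long bone extracts. Of 19 tested, 3 were lower in cartilage and 0 higher, with a median of -0.54. The median was -0.73 without 1921 and -0.16 against 1921 alone, so 1921 made this difference smaller. Undetected on both cartilage arrays were 4 of the 19, which passed the filter through long bone alone. Their difference was partly fixed in advance. Slc4a1, the anion exchanger of red cells, was at 7.73 and 7.61 in cartilage, against 9.41, 10.28 and 10.34 in long bone (-2.34, SE 0.28, adjusted p = 0.000769). Hbb-b2, an adult beta globin, was at 5.59 and 5.46 in cartilage, against 10.95, 7.04 and 6.59 in long bone. Hba-x, an embryonic alpha-like globin, was at 4.46 and 5.18 in cartilage, against 4.74, 6.97 and 7.76 in long bone. The adult globin was thus highest on 1921 and the embryonic globin highest on 1923 and 1929, and neither was called (adjusted p of 0.0952 and 0.126). Hba-a1, adult alpha globin, differed by -0.12. The globins share sequence with close copies, so their probes may not be separate.

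Of 27 tested endothelial genes 4 were called lower and 0 higher, beside 2.94% and 2.13% of all genes. All 27 differences were negative, from -1.18 to -0.02, with a median of -0.70. Of the 27, 1 was undetected on both cartilage arrays and passed the filter through long bone alone. Icam2, an adhesion molecule of endothelium, was at 8.14 and 8.31 in cartilage, against 9.28, 9.47 and 9.46 in long bone (-1.18, SE 0.20, adjusted p = 0.00445). Tal1, a factor of endothelium and blood, differed by -1.07 (adjusted p = 0.00996), Esam, a junction molecule, by -1.01 (adjusted p = 0.00357), and Mmrn2, a matrix protein of vessels, by -1.0 (adjusted p = 0.00765). Pecam1 differed by -0.91 (adjusted p = 0.0209) and Cdh5 by -0.79, both under 2-fold, and Cdh5 was chosen after its values were seen. The other probes of Pecam1 differed by -0.58 and -0.12. In 19 of the 27 genes no long bone array overlapped with cartilage, beside 20.7% of all genes. Summed intensity was 13515 and 12817 in cartilage, against 21093, 22850 and 22640 in long bone. None was called with amplifications averaged. Cxcl12, a chemokine of stromal cells that hold blood stem cells, was at 10.20 and 10.07 in cartilage, against 12.66, 12.15 and 12.03 in long bone (-2.14, SE 0.29, adjusted p = 0.00147), and its other probe differed by -1.11.

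Skeletal muscle genes were read in both tissues. Of the 26 tested skeletal muscle genes 0 were called, with a median of -0.28 and 22 negative differences. Acta1, skeletal actin, was at 13.84 and 13.56 in cartilage, against 14.46, 14.38 and 14.48 in long bone, and at 11.47 in calvaria. Summed intensity of the list was 103106 and 99806 in cartilage, against 141451, 146495 and 143628 in long bone and 15370 in calvaria. Muscle signal was thus present on every limb array at a level far above that of calvaria. None of 20 tendon and fibrous genes was called (median -0.32), and 0 of 31 cell cycle genes (median 0.19, with 24 of them positive, beside 6388 of all 11954 genes). Mki67, a marker of dividing cells, differed by 0.40. Plk1, a mitotic kinase, was at 5.18 and 5.06 in cartilage and at 9.60, 4.81 and 4.8 in long bone, so that its signal on 1921 stood alone.

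**Figure D3:**
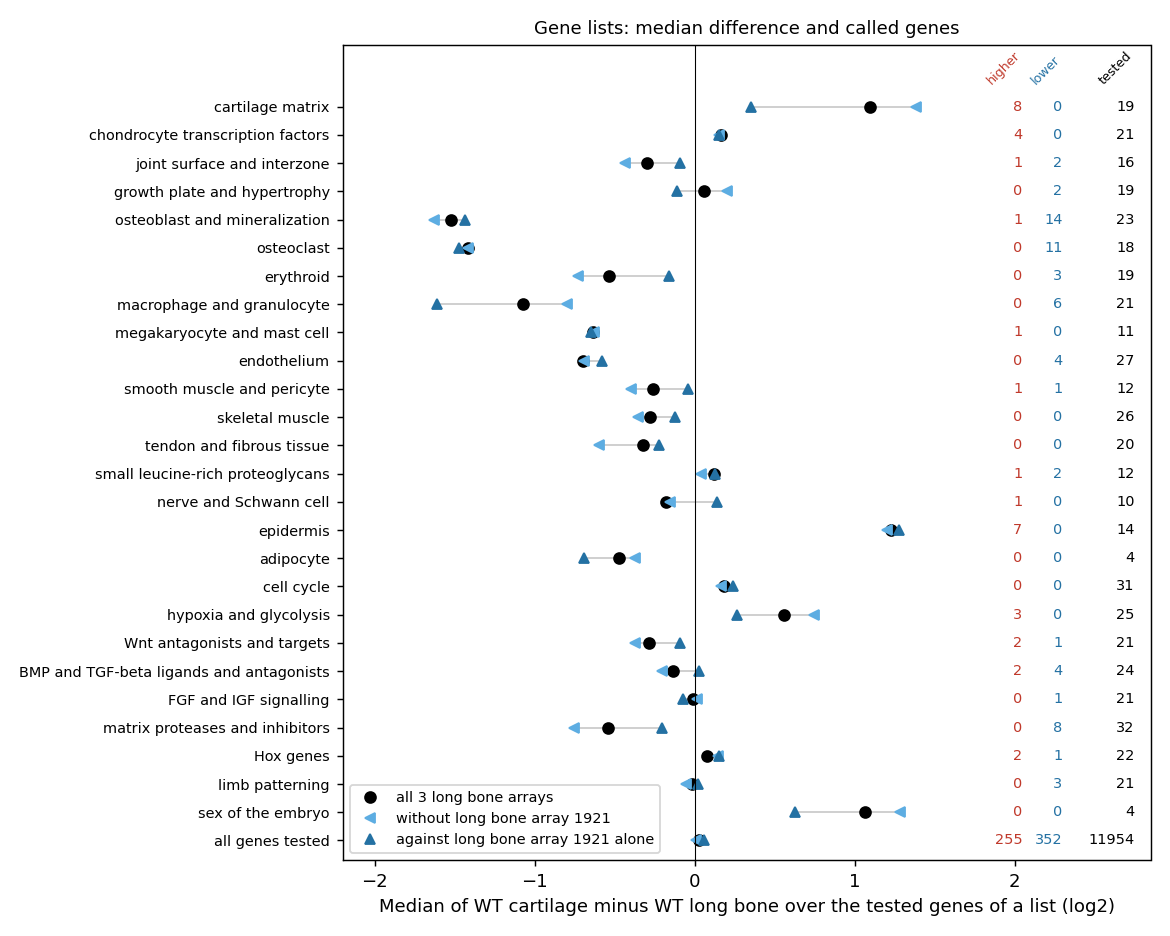
Median tissue difference (log2, WT cartilage minus WT long bone, x axis) of the tested genes of each list, against all 3 long bone arrays (black), without array 1921 (light triangle) and against 1921 alone (dark triangle), with the counts called higher and lower and the number tested at the right. The cartilage matrix list moves between 0.36 and 1.39, the macrophage and granulocyte list between -1.61 and -0.80, and the osteoblast list between -1.63 and -1.44.

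Among signalling genes, Dkk1, a secreted Wnt antagonist, was undetected in cartilage and at 7.47, 7.04 and 7.15 in long bone (at least 4.5-fold lower, adjusted p = 6.31e-05), and remained called with amplifications averaged. Other Wnt genes ran the other way: Sfrp1, also an antagonist, was at 11.12 and 11.23 in cartilage, against 10.51, 9.64 and 9.52 in long bone (1.28, adjusted p = 0.0114), and Lef1, a nuclear partner of beta-catenin, differed by 1.42 (adjusted p = 0.0115) although its other probe differed by -0.21. The Wnt list of 21 had 2 higher and 1 lower. In the list of BMP and TGF-beta genes 2 of 24 were higher, Gdf5 and Nog, the BMP antagonist noggin (1.35, adjusted p = 0.018), and 4 were lower. Bmp3, a BMP family member made by osteoblasts, was at 7.85 and 7.44 in cartilage, against 9.40, 9.71 and 9.94 in long bone (-2.04, SE 0.29, adjusted p = 0.00172). Smad6, an inhibitor within the BMP pathway, Tgfb1 and Bmp1, a procollagen protease, differed by -1.16, -1.15 and -1.03, and the other probes of Bmp1 by -0.94, -0.22 and -0.004. Tgfb1 was chosen after its values were seen, and of the 5 fits that left out an array it was called in 1, that without 1921. Of the 21 FGF and IGF genes, Igfbp3, a binding protein of IGF, was lower (-1.04, adjusted p = 0.00645) and 0 were higher. The other probe of Igfbp3 differed by -0.58 and was not called (adjusted p = 0.0784). These counts of signalling genes stand beside 2.13% of all genes called higher and 2.94% called lower.

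In the list of matrix proteases, their inhibitors and crosslinking enzymes, 8 of 32 genes were lower and 0 higher, with a median of -0.54. Beside Mmp9, Mmp13 and Ctsk, these were Serpinf1 (pigment epithelium-derived factor, -1.73, adjusted p = 7.75e-05), Lox (lysyl oxidase, which crosslinks collagen, -1.51, adjusted p = 0.00027), Mmp23, Adamts9 and Loxl4. The last 4 were chosen after their values were seen. The other probe of Serpinf1 differed by -0.28. Of the 32 genes, 1 was undetected on both cartilage arrays and 1 on all long bone arrays. With amplifications averaged 6 of the 8 were called. Of the genes of hypoxia and glycolysis, the pathway on which chondrocytes rely in tissue without vessels, 3 of 25 were higher, 0 were lower and 23 of the differences were positive, with a median of 0.56. Among all 11954 genes 6388 differences were positive. Of the 3 higher genes, Pgam1 (1.19, adjusted p = 0.00601) was undetected on all long bone arrays. It passed the filter through the cartilage arrays alone, so it had to differ. Aldoc, an aldolase, was at 9.48 and 9.52 in cartilage, against 8.71, 7.35 and 7.62 in long bone (1.61, SE 0.32, adjusted p = 0.00941). Pgk1, phosphoglycerate kinase, was at 13.20 and 13.19 in cartilage, against 12.57, 11.99 and 11.92 in long bone (1.04, adjusted p = 0.00644), called in 1 of the 5 fits that left out an array, that without 1921. The list median was 0.75 without 1921 and 0.26 against 1921 alone, and 0 of its genes were called with amplifications averaged.

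Positional genes differed in a few members. Of 22 Hox genes 2 were higher and 1 was lower, and of 21 limb patterning genes 0 were higher and 3 were lower. Over all genes 2.13% were higher and 2.94% were lower. Hoxc10, a Hox gene of the hindlimb and lower trunk, was at 7.61 and 8.68 in cartilage, against 6.33, 6.27 and 6.94 in long bone (1.63, SE 0.39, adjusted p = 0.0221). Hoxd9 was higher by 1.11 (adjusted p = 0.00749) and Hoxb2 differed by -1.01 (adjusted p = 0.0149), called in 1 of the 5 fits that left out an array, that without 1921, and the median of 22 Hox genes was 0.08. Pitx1, the hindlimb factor, and Tbx5, the forelimb factor, differed by 1.21 (adjusted p = 0.0547) and 0.22, and neither was called. Irx5 and Irx3, homeobox factors of limb patterning, differed by -1.56 and -1.51 (adjusted p of 0.0018 and 0.0035). Irx3 was at 6.86 and 7.37 in cartilage, against 8.61, 8.55 and 8.71 in long bone, and at 10.43 in calvaria.

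The remaining lists held few calls, to be read beside 2.13% of all genes higher and 2.94% lower. Of the 12 small leucine-rich proteoglycans, Podnl1 was at 5.29 and 4.79 in cartilage, against 7.40, 8.08 and 8.0 in long bone (-2.79, adjusted p = 0.000313, other probe -0.50), Omd (osteomodulin of mineralizing tissue) differed by -1.52 and Chad (chondroadherin) by 1.18, with Chad called in 1 of the 5 fits that left out an array, that without 1921. Of 12 smooth muscle and pericyte genes, Rgs5, a marker of pericytes, differed by 1.43 (adjusted p = 0.02), with its other probe at -0.94. Sox10, of Schwann and neural crest cells, differed by 1.01 (adjusted p = 0.0119) as the sole call among 10 nerve genes, and Gp1bb, a platelet glycoprotein, by 1.16 (adjusted p = 0.0189) as the sole call among 11 megakaryocyte and mast cell genes. The 4 tested adipocyte genes gave 0 calls. With amplifications averaged, no gene was called in the lists of chondrocyte transcription factors, BMP and TGF-beta, FGF and IGF, Hox, limb patterning, erythroid, smooth muscle, nerve or megakaryocyte and mast cell genes.

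**Figure D4:**
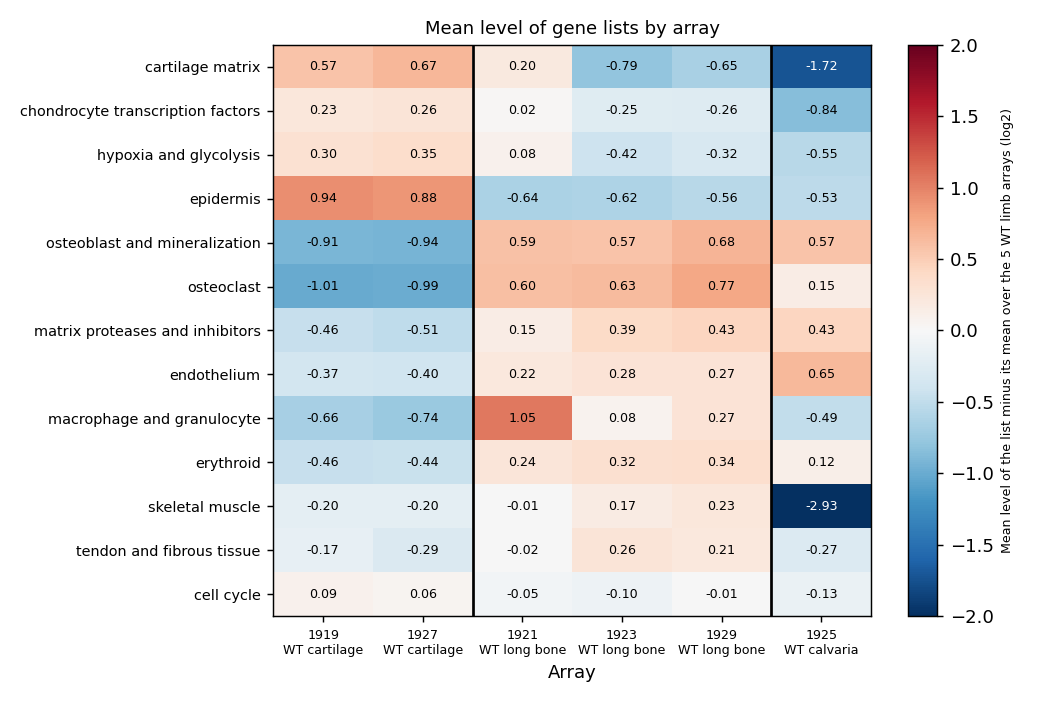
Mean level of 13 gene lists on each array (log2, centred on the mean over the 5 WT limb arrays, colour limited to 2 in either direction), with cartilage at the left, long bone in the middle and calvaria at the right. The epidermis list stands at 0.94 and 0.88 in cartilage, against -0.64, -0.62 and -0.56 in long bone, and array 1921 has a cartilage matrix value of 0.20 and a macrophage and granulocyte value of 1.05.

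Falls outside the cell type lists included probes of genes that every cell uses. Tomm22, a subunit of the mitochondrial import pore, was at 6.41 and 6.52 in cartilage, against 10.12, 10.21 and 10.51 in long bone (-3.81, SE 0.24, adjusted p = 1.18e-05), whereas its other probe differed by 0.11. Cops8, a subunit of the COP9 signalosome, was at 5.61 and 5.89 in cartilage, against 9.26, 9.37 and 9.64 in long bone (-3.68, SE 0.18, adjusted p = 1.53e-06). In S1Pcko embryos the same differences were -3.98 and -4.52. Mt3, a metallothionein, was undetected in cartilage and at 8.20, 8.49 and 9.46 in long bone (at least 12.6-fold lower, adjusted p = 0.000395).

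The tissue difference was also measured in S1Pcko embryos, on arrays that share no sample with these. Of the 255 genes higher in WT cartilage 7 were called higher in S1Pcko cartilage too, and of the 352 lower genes 70 were called lower. The share of all genes called in S1Pcko embryos is not given here, so these overlaps have no base beside them. The S1Pcko difference was positive for 203 of the 255 genes, beside 6652 of all 11954, and negative for 337 of the 352, beside 5283 of all. The difference between the genotypes was tested itself: it was called for 77 of 22035 probes (0.349%), and for 19 of the 255 higher and 21 of the 352 lower genes. Ibsp had a difference of -4.84 in WT and -2.39 in S1Pcko embryos (adjusted p of the difference between them 0.0049). Ctsk had -2.70 in WT and -0.57 in S1Pcko embryos. Bglap had -4.35 in WT and -3.03 in S1Pcko embryos, and for it the difference between genotypes was not called, but was without array 1922 (adjusted p = 0.00686). Pdgfd had 2.17 in WT and -2.26 in S1Pcko embryos. The genes were chosen on the WT arrays, which the test between genotypes also uses, so larger differences in WT follow in part from that choice. Both differences are shown side by side in the plot of called genes by genotype.

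**Figure D5:**
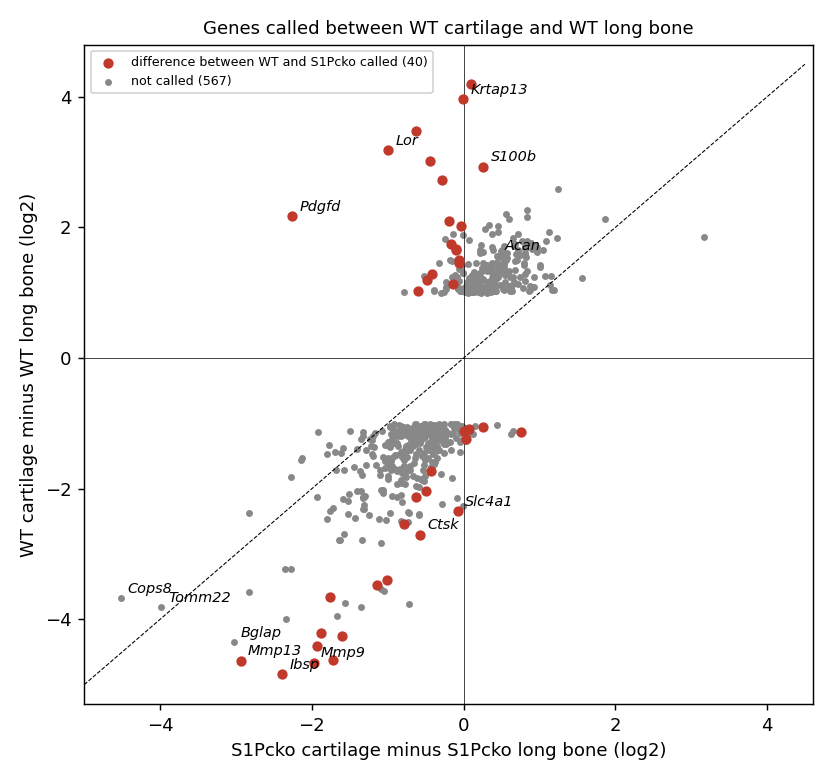
Tissue difference (log2, cartilage minus long bone) in WT embryos (y axis) against that in S1Pcko embryos (x axis) for the 607 genes called in WT. Red marks the 40 genes whose difference between genotypes was called, the dashed line marks equal differences, and the gap between -1 and 1 on the y axis is set by the 2-fold threshold.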

How the data were processed

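Expression was measured with Illumina MouseWG-6 v1.1 arrays. As deposited by the authors, values are intensity signals of 46643 probes without normalization, each with a detection p-value against the negative controls of its array. A further deposited table holds the authors' own normalized intensity values, not logged, and was used as an alternative. Scanner and bead summary software are not given in the sources used here. Columns without a sample numbered 0. Of the probes, 32794 had 1 gene symbol in the platform annotation, 55 had several and 13794 had none.

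Background was removed by neqc in limma 3.58.1 (R 4.3.3) from negative controls inferred through the detection p, with an offset of 16 and quantile normalization over 12 arrays. Probes with a detection p under 0.05 on 2 or more of the 5 WT limb arrays were tested (22035, of which 17354 had 1 symbol). The limma model had 4 groups, 10 arrays and 6 residual degrees of freedom beside a prior of 4.88, so that WT and S1Pcko cartilage and long bone share an estimate of the spread. p values are two-sided, with Benjamini-Hochberg adjustment over the probes tested. The number of arrays limits the precision, and calvaria with 1 array per genotype received no test. The methods of the study name a 2-way ANOVA with the same thresholds, and a fit without moderated variances stands for it.

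The gene lists were chosen with earlier results of these data known. Genes were named by a rule: the 15 largest rises and falls without overlap, the 4 members of each list with the largest differences, the marker that defines a list, and all sex genes. Others were chosen after their values were seen. In simulated data of this comparison on 22035 probes, where 50 probes were changed at each size, 1 was found at 1.5-fold, 23 at 2-fold, 48 at 4-fold and 49 at 8-fold, with 4 false calls. The changed probes were drawn from those above the median level, and every array was simulated as independent. The real cartilage arrays are amplifications of the same extract, so these figures do not cover that case or dim probes. Promoters were searched in Python 3.11.15, and 9642 of 11954 tested genes had one in the RefSeq table. Alternatives covered the model, the filter, background correction, scaling, the values of the authors, amplifications, the probe summary and leaving out each array. Array 1921 as the sole long bone extract was added after the data were seen.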

Additional observations from a re-analysis of the deposited data

Results flagged for a closer look

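For 20 of the genes named by the rule, and for 40 of all 607 called genes, the tissue difference differed between WT and S1Pcko embryos by the test of that difference itself (limma, adjusted p under 0.05, 77 of 22035 probes or 0.349% passing). These genes were chosen for a large WT difference, and the test uses the same WT arrays. A share above 0.349% and a larger difference in WT embryos thus follow in part from that choice. The values that follow are log2 WT difference minus S1Pcko difference.

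Of the genes that were higher in WT cartilage, 2310034C09Rik had a value of 4.11, Krtap13 of 3.97, Lce1c of 4.11, Lor of 4.18, Lce1m of 3.46, Lce1b of 3.00 and Kprp of 2.29. Except 2310034C09Rik, which was in no list, these belong to the epidermis list. All of them but Lor passed the filter through the WT cartilage arrays alone. Lor was at 9.79 and 9.73 in WT cartilage against 6.39, 6.53 and 6.81 in WT long bone, and in S1Pcko embryos at 6.56 and 6.12 in cartilage, against 7.68, 7.06 and 7.26 in long bone. The highest of these, 7.68, was on array 1922, the S1Pcko long bone array with the highest sum of the epidermis list. In the study, qPCR on fresh pooled cartilage RNA did not find Lor lower in S1Pcko embryos. S100b had 2.67 and Pdgfd had 4.43. Pdgfd was at 4.42 and 4.41 in S1Pcko cartilage, against 7.08, 6.49 and 6.45 in S1Pcko long bone, the reverse of its order in WT embryos, and its other WT probe differed by -0.56. The Pdgfd probe also passed the filter through the WT cartilage arrays alone.

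Of the genes that were lower in WT cartilage, the bone genes Ibsp (-2.46), Ifitm5 (-2.32), Enpp6 (-2.48) and Mmp13 (-1.69) had the larger fall in WT embryos. So did the osteoclast genes Mmp9 (-2.69), Ocstamp (-2.66), Slc9b2 (-2.90) and Ctsk (-2.13), and Slc4a1 (-2.27), Dkk1 (-1.75) and Serpinf1 (-1.30). Ibsp was at 9.31 and 9.21 in WT cartilage, against 13.92, 14.09 and 14.30 in WT long bone, and in S1Pcko embryos at 11.45 and 11.24 in cartilage, against 14.16, 13.53 and 13.51 in long bone. With amplifications averaged 7 probes passed the test, and without array 1921 452 did. Without 1922, left out after the data were seen, 426 passed, among them all 77 probes and all 20 genes given here.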

How the results depend on the processing

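Median scaling, no filter, a detection p under 0.01, the 5 WT arrays alone and the amplification round as a block left every count within 1.5 times its main value. Without background correction 158 probes were higher in cartilage and 264 lower (112 and 184 genes), and with normexp at an offset of 50 172 and 276 (121 and 191 genes). Without moderated variances 180 probes and 121 genes were higher and the genotypes differed for 19 probes, against 37 with the authors' values. With amplifications averaged, 33 probes were higher and 105 lower (20 and 70 genes), and 7 differed between genotypes. With the first amplification alone the counts were 3 and 9 probes, 2 and 6 genes, and 0 (limma, 1144 at an unadjusted p under 0.05). Against array 1921 alone, 175 probes and 103 genes were higher and 47 differed between genotypes. Leaving out 1 array gave 170 to 574 probes higher, 347 to 634 lower, 110 to 357 genes higher, 208 to 395 lower and 30 to 452 probes that differed between genotypes. The highest of each came without array 1921, and the lowest counts of higher and lower genes and probes came without 1927.

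Of the 74 called genes named by the rule, 7 kept their call in every alternative, 25 with amplifications averaged and 43 against array 1921 alone, and none changed direction. No paired analysis was possible because the replicate numbers in the labels are 1 and 2 for WT cartilage and 3, 3 and 4 for WT long bone, so the groups share none. Differences of 2-fold in dim probes lie at the limit of these arrays.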
